A study of Mus musculus with 6 samples.

Results

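The genes described here encode proteins that join epithelial cells to each other, as expressed in mouse embryonic stem cells after depletion of Fip1. They were chosen by name, with the array level deciding only between probe sets of the same gene: the cadherins Cdh1 and Cdh2, Epcam, the claudins Cldn3, Cldn4, Cldn6 and Cldn7, the scaffold gene Tjp1 and occludin, Ocln. Of the 9 genes, 8 were measured among 15267 genes in all, and Cdh2 was not analysed here. Each of the 8 had 1 probe set, so the level decided nothing. Their mean level lay above the 25th percentile of all genes in 8 of 8 cases. The list was put together with earlier results of these arrays known, so a count over its members is a description of them and not independent evidence.

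All groups used the embryonic stem cell line E14Tg2a.4, kept on gelatin in M15 medium, treated with Lipofectamine 2000 and harvested on day 4. Of 3 groups with 2 arrays each, the first received Fip1 siRNA 2, the second Fip1 siRNA 3 and the mock group the lipid alone, so none carried a non-targeting siRNA. Replicate 1 of the 3 groups shares a suffix in the sample titles and so does replicate 2. The labels do not say what the suffix marks, nor whether the replicates were separate cultures. The p-values therefore measure the spread between these arrays, which may be partly technical. Each replicate number has 1 array per group, so p-values between replicates measure only how alike the difference is in the 3 groups. They do not measure variation between cultures. Values are log2 probe set values from RMA, which corrects background, equalises the distributions of the arrays and combines a gene's probes into a single value. In such a bulk measurement, fewer cells that express a gene and less RNA per cell cannot be told apart.

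Fip1, the product of Fip1l1, is a subunit of the complex that recognises poly(A) signals and cleaves the ends of messenger RNAs. Mouse embryonic stem cells grow as compact colonies and carry E-cadherin, the product of Cdh1, at their contacts. Cadherins bind the same cadherin on the neighbouring cell and connect through catenins to actin, which forms the adherens junction. Claudins and occludin span the membrane at tight junctions, where they seal the space between cells or form selective pores, and the scaffold ZO-1, the product of Tjp1, anchors them to the cytoskeleton. Transcriptional repressors such as Snai1 and Zeb1 bind E-box motifs and are known to shut off epithelial genes, Cdh1 among them, when cells become mesenchymal.

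Fip1l1 checked the labels. In replicates 1 and 2 its log2 values were 8.26 and 7.79 (siRNA 2), 8.39 and 7.86 (siRNA 3) and 9.65 and 9.74 (mock). Every siRNA array lay below both mock arrays (log2 difference -1.62, SE 0.176, limma adjusted p = 0.00176). The 9 stem cell markers had a mean log2 level of 12.25 to 12.42 on the 6 arrays, and the lowest of them, Esrrb, lay between 9.47 and 10.05. The 8 fibroblast markers had a mean level of 4.27 to 4.45. Array medians ran from 6.08 to 6.12.

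Between the replicates, Cldn6, Cldn7, Ocln and Epcam were lower in replicate 2 in all 3 groups. Between Fip1-depleted and mock cells, no gene of the 8 passed the threshold, an adjusted p under 0.05, with the 2 siRNAs pooled. That fit had no term for the replicate. With the replicate number as a block, 1 of the 8 passed, Cldn6, which was lower (limma adjusted p = 0.00373). There 20.2% of all genes passed. For genes of this list the sequence before the transcription start is shown first, with E-box motifs marked. The motif was chosen after the 4 genes were seen. Whether an E-box repressor had a part in their replicate difference was not tested. The sequences are the 250 bases before the start in RefSeq on assembly GRCm38.p6, 5′ to 3′ on the gene's strand, with each E-box of the letters CACCTG, or CAGGTG on the other strand, in capitals. RefSeq windows were matched for 7 of the 8 measured genes, all but Cdh1. Epcam, Cldn6, Cldn7 and Ocln are the genes called lower in replicate 2, and Cldn4 and Cldn3 are 2 claudins not called there.
Epcam chr17:87635729-87635978 (+): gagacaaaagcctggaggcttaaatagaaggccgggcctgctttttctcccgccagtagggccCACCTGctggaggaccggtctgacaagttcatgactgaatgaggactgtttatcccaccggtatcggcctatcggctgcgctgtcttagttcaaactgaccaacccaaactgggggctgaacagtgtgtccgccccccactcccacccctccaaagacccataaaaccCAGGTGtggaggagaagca
Cldn6 chr17:23679115-23679364 (+): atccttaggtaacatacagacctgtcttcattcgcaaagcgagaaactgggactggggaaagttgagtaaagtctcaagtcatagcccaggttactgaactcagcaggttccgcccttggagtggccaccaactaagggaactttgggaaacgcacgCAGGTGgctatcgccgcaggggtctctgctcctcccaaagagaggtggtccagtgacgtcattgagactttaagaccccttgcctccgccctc
Cldn7 chr11:69965171-69965420 (+): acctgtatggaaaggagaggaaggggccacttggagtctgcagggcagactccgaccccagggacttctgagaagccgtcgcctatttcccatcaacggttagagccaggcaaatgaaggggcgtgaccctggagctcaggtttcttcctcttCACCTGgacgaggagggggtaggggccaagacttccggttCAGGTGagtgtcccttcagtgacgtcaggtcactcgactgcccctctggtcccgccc
Ocln chr13:100552499-100552748 (-): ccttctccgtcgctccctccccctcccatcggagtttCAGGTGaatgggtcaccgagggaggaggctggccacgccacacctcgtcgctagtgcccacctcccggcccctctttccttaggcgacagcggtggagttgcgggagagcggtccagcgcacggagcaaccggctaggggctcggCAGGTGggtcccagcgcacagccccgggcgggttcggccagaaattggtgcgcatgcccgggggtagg
Cldn4 chr5:134946935-134947184 (-): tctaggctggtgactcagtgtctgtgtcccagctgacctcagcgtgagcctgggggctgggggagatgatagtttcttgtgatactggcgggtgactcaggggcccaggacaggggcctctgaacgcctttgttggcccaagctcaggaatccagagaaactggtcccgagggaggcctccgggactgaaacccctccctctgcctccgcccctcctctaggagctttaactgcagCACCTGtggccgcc
Cldn3 chr5:134985964-134986213 (+): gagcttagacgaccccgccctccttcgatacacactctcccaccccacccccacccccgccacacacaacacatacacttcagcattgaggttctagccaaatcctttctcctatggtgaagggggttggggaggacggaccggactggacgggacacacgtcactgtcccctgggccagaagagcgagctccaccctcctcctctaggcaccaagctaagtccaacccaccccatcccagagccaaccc

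Each of the 4 genes called lower in replicate 2 had an E-box in at least 1 window. The motif began 187 and 19 bases before the start in Epcam, 93 bases before it in Cldn6, 97 and 57 in the Cldn7 window printed, and 213 and 68 in the Ocln window printed. The other Cldn7 window, for a start further upstream, and the other Ocln window held none. Among the genes without a called replicate difference, Cldn4 held 1 E-box, 14 bases before the start, and Cldn3 and Tjp1 held none. Of 32851 windows of this length, with 1 chromosome left out of the count, 17.2% held the motif. Of the 27025 genes of these windows, 19.4% had it in at least 1 window. The Grainyhead motif AACCGGTT, read on both strands, was in none of the 9 windows of these genes and in 0.116% of the 32851 windows. A match is a string of letters and does not show that a factor binds there.

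Cldn6, a claudin of early embryonic epithelia, varied most among the 8 genes. In replicates 1 and 2 the log2 values of Cldn6 were 7.56 and 6.27 (siRNA 2), 8.47 and 6.96 (siRNA 3) and 8.51 and 7.28 (mock). All 3 replicate 2 arrays lay below all 3 replicate 1 arrays, and within each replicate the siRNA 2 array was the lowest. The replicate difference was -1.29 with siRNA 2, -1.51 with siRNA 3 and -1.23 in mock cells. In the fit with group as a term, Cldn6 fell by 1.34 in replicate 2 (log2 difference, 95% interval -1.56 to -1.13, SE 0.0948, limma adjusted p = 0.000384), so that 39.4% of the replicate 1 level remained.

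Cldn7, a claudin of many simple epithelia, also differed between replicates. It stood at 8.67 and 7.46 in mock cells, 8.50 and 7.13 with siRNA 2, and 8.96 and 7.47 with siRNA 3. The groups of replicates did not overlap. Cldn7 fell by 1.36 in replicate 2 (SE 0.0890, limma adjusted p = 0.000307), to 39.0% of the replicate 1 level, and the siRNA arrays lay on both sides of the mock array of their replicate.

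Ocln encodes occludin, a membrane protein of tight junctions. Its log2 value was 6.90 and 6.31 in mock cells, 6.52 and 5.72 with siRNA 2, and 6.80 and 6.14 with siRNA 3. Again every replicate 2 array was below every replicate 1 array, and the siRNA 2 array was the lowest within each replicate. Ocln fell by 0.68 in replicate 2 (SE 0.101, limma adjusted p = 0.0118), to 62.3% of the replicate 1 level. Its call ended without siRNA 2 replicate 1 (adjusted p = 0.0533) or siRNA 2 replicate 2 (0.0508).

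Epcam, the epithelial adhesion molecule that embryonic stem cells carry on their surface, stood at 11.91 and 11.49 in mock cells, 11.72 and 11.40 with siRNA 2 and 11.85 and 11.41 with siRNA 3. The replicates did not overlap here either, but the step was smaller. Epcam fell by 0.39 in replicate 2 (SE 0.0590, limma adjusted p = 0.0127), to 76.1% of the replicate 1 level, and the siRNA arrays lay within 0.19 of the mock array of their replicate. Leaving out either mock array ended its call (adjusted p 0.0671 and 0.0673), as did fitting without the trend in the prior variance (0.0708).

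**Figure D1:**
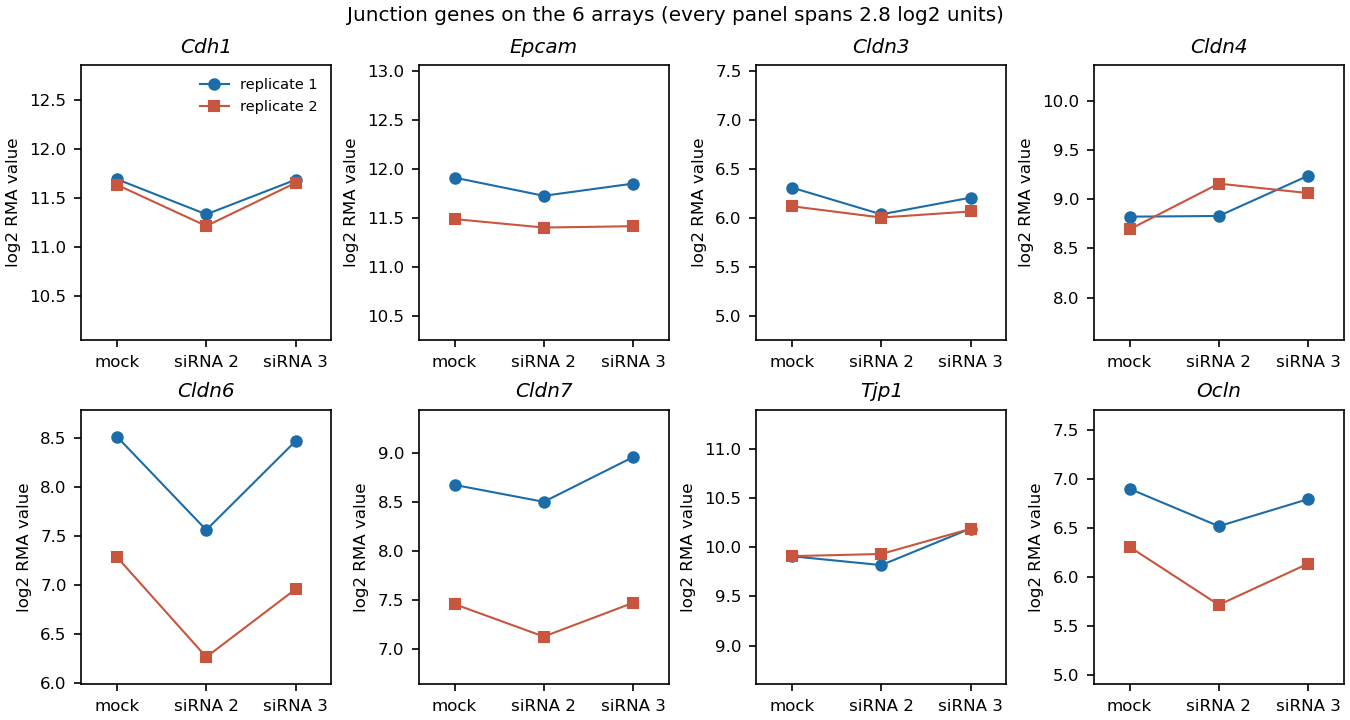
Log2 RMA values of the 8 measured junction genes (vertical axes, each spanning the same number of log2 units) in the mock, siRNA 2 and siRNA 3 groups, with 1 point per array and a line joining the arrays of the same replicate. The replicate 2 line of Cldn6, Cldn7, Ocln and Epcam runs below the replicate 1 line in all 3 groups, and the siRNA 2 points of Cdh1 lie below the mock and siRNA 3 points.

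The other 4 genes were not called between replicates, though Cdh1 and Cldn3 were also lower in replicate 2 in each of the 3 groups. The replicate difference was -0.07 for Cdh1 (SE 0.0585), -0.12 for Cldn3 (SE 0.101), 0.01 for Cldn4 (SE 0.105) and 0.04 for Tjp1 (SE 0.0684), with limma adjusted p between 0.583 and 0.982. So 4 of the 8 genes were called lower in replicate 2 and 0 higher. Of all 15267 genes, 1.45% were called lower, 1.05% higher and 2.5% in either direction. All replicate 2 arrays lay below all replicate 1 arrays for Cldn6, Cldn7, Ocln and Epcam, as for 5.81% of all genes, and above them for 0 of the 8, against 7.65%. The median replicate difference of the 8 was -0.257, beside 0.0178 for all genes.

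Among 92 further junction and epithelial genes, 3 were lower in replicate 2 and 1 was higher. These 4 were outside the naming rule and were picked after their values were seen. Esrp1, a splicing regulator of epithelial cells, had log2 values of 9.40 and 8.32 in mock cells, 8.97 and 7.998 with siRNA 2 and 9.25 and 8.12 with siRNA 3. It fell by 1.06 (SE 0.0786, limma adjusted p = 0.000437). Marveld2, which encodes tricellulin, the occludin relative at corners where 3 cells meet, fell by 0.72 (SE 0.124, adjusted p = 0.0217). Its log2 values were low, from 4.29 to 5.60, the lowest close to the 25th percentile of the mean levels of all genes (4.28). Grhl1, a Grainyhead-like transcription factor, fell by 0.51 (adjusted p = 0.0452). Marveld2 is the next protein-coding gene to Ocln on chromosome 13. Tcf4, an E-box binding factor, rose by 0.40 (adjusted p = 0.0395). Twist1, of the same list of repressors and mesenchymal genes, was lower in replicate 2 in each group and was not called. Its mean log2 value was 5.95 in replicate 1 and 5.56 in replicate 2. Of the 11 genes of that list, 8 had a positive replicate difference and 3 a negative one. Of all 15267 genes, 8393 had a positive one and 6874 a negative one. Twist1 was named after its values were seen.

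The calls of Grhl1 and Tcf4 ended without either siRNA 2 array or either siRNA 3 array, and that of Tcf4 also without either mock array (adjusted p 0.0613 to 0.130). Both ended without the trend (0.0560 and 0.0802), and that of Grhl1 after repeated quantile normalization (0.0516). The call of Marveld2 ended without siRNA 2 replicate 1 (0.0616) or siRNA 2 replicate 2 (0.0618). Zeb1, the E-box repressor, had a replicate difference of 0.39 that did not pass (adjusted p = 0.0745), and that of Snai1 was 0.05. Grhl2, a Grainyhead-like regulator of Cdh1 and claudin genes, had one of -0.13, and Vim, which encodes the intermediate filament of mesenchymal cells, one of 0.05.

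Markers of other cell types differed between the replicates as well, where 1.05% of all genes were called higher and 1.45% lower. Of 8 primitive endoderm markers, 4 were higher in replicate 2 and 0 lower: Sox7 by 0.80, Cubn by 0.78, Sox17 by 0.65 and Gata6 by 0.64 (limma adjusted p 0.00909 to 0.0422). The log2 of their summed linear level was 8.34 to 8.49 in replicate 1 and 8.62 to 9.32 in replicate 2. Of 4 post-implantation epiblast markers, 3 were lower and 0 higher: Pou3f1 by 1.24, Fgf5 by 0.84 and Dnmt3b by 0.62 (adjusted p 0.00138 to 0.00990), with a summed level of 12.34 to 12.54 in replicate 1 and 11.76 to 11.98 in replicate 2.

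Of 8 trophectoderm markers, the keratins Krt18 and Krt8, which are also general epithelial genes, were lower by 1.07 and 0.96 (limma adjusted p = 0.00105 and 0.00985), and 0 were higher. Their summed level was 10.69 to 11.01 in replicate 1 and 9.90 to 10.62 in replicate 2. None of the 9 stem cell or 8 fibroblast markers passed in limma, with 3 of each list at an unadjusted p under 0.05, where 17.7% of all genes stood. Their summed level was 15.94 to 16.04 and 7.63 to 7.69 in replicate 1, and 16.03 to 16.08 and 7.83 to 8.04 in replicate 2. RMA values are never 0. The lowest value of a primitive endoderm marker on any array was 3.64 (Cubn), of an epiblast marker 4.39 (Fgf5) and of a trophectoderm marker 3.71 (Elf5). The markers named for their replicate difference were picked after their values were seen. Whether these shifts had a part in the junction gene differences was not tested. The calls of Gata6, Sox17 and Cubn ended without either mock array, that of Sox17 also without siRNA 3 replicate 2 and that of Cubn also without either siRNA 2 array (adjusted p 0.0505 to 0.0942). The call of Cubn ended as well after repeated quantile normalization (0.0510) and without the trend (0.0695).

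**Figure D2:**
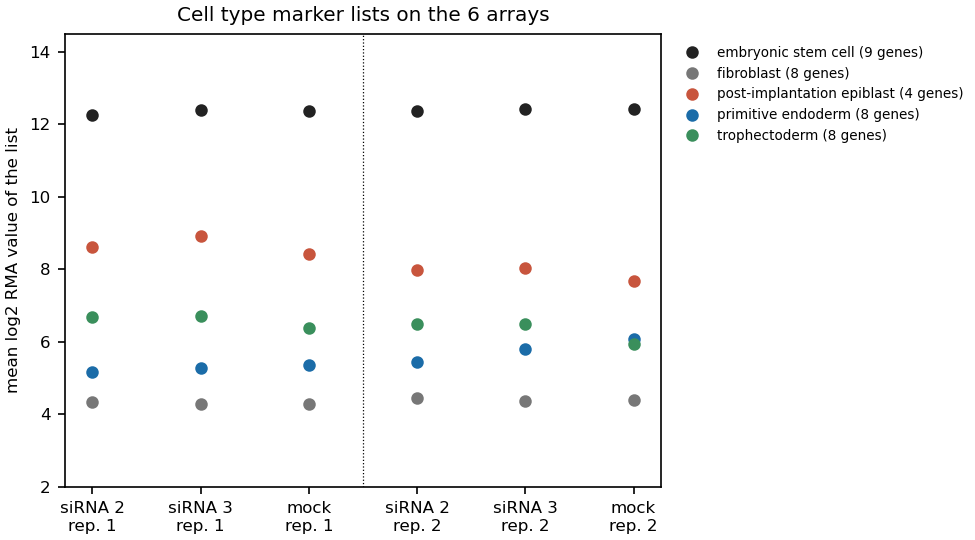
Mean log2 RMA value (vertical axis) of 5 marker lists on each of the 6 arrays, with the replicate 1 arrays left of the dotted line and the replicate 2 arrays right of it. The stem cell list stays between 12.25 and 12.42, the epiblast list is lower in replicate 2 (7.69 to 8.03, against 8.43 to 8.91) and the primitive endoderm list is higher (5.45 to 6.08, against 5.17 to 5.37).

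The second question was whether depletion of Fip1 changed these genes. With both siRNAs together against mock, 0 of the 8 passed in limma in either direction, while 10.3% of all genes did (4.15% higher and 6.19% lower). At an unadjusted p under 0.05 there were 2, Cdh1 and Cldn4, where 24.3% of all genes stood. The median difference of the 8 was -0.119, beside -0.00155 for all genes. The replicate numbers pair the arrays, and with the replicate number as a block 1 of the 8 passed, Cldn6, which was lower, against 20.2% of all genes (8.43% higher and 11.7% lower). The 4 siRNA arrays lay below both mock arrays for 0 of the 8, against 18.4% of all genes. Both siRNA groups share the same 2 mock arrays, so their differences from mock are not independent.

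Cdh1, which encodes E-cadherin, had log2 values of 11.69 and 11.63 in mock cells, 11.33 and 11.21 with siRNA 2, and 11.69 and 11.65 with siRNA 3. The siRNA 2 arrays lay below the other 4. Cdh1 fell by 0.39 with siRNA 2 (95% interval -0.58 to -0.19, SE 0.0850, limma adjusted p = 0.0318) and stood at 76.4% of the mock level. It was the only gene of the 8 called there, where 6.92% of all genes were (2.91% higher and 4.01% lower). With siRNA 3 the difference was 0.01 (95% interval -0.19 to 0.20, adjusted p = 0.979). With the replicate block the siRNA 2 call stood (adjusted p = 0.00666), and it then ended without mock replicate 2 (0.0766). Without the block the call ended when either siRNA 2 array or either mock array was left out (adjusted p 0.0740 to 0.188) and without the trend in the prior variance (0.0823).

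The difference between the siRNAs was itself tested. For Cdh1 siRNA 2 minus siRNA 3 was -0.40 (SE 0.0850, 95% interval -0.59 to -0.20), with an unadjusted p of 0.00144 that did not pass over all genes (limma adjusted p = 0.984, under the replicate block 0.274). No gene passed this comparison in limma with or without the block, 0 of 15267 (0%). At an unadjusted p under 0.05 there were 2 of the 8 genes, Cdh1 and Tjp1, against 4.22% of all genes, and with the block 5 of the 8 against 8.57%. In each of these 5, Cdh1, Cldn6, Cldn7, Ocln and Tjp1, siRNA 2 was the lower. The 5 blocked differences ran from -0.80 for Cldn6 to -0.31 for Tjp1.

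The depletion differences of Cldn6 were set against its replicate step. Relative to its same-numbered mock array, Cldn6 differed by -0.95 and -1.02 with siRNA 2 and by -0.05 and -0.33 with siRNA 3. Without the block the siRNA 2 difference of -0.98 had an SE of 0.583 and missed the threshold (limma adjusted p = 0.377). With the block its SE was 0.116 and it passed (adjusted p = 0.000876), leaving 50.5% of the mock level. With 1 array left out of the blocked fit, the adjusted p of the siRNA 2 difference ran from 1.91e-06 to 0.0115. Such a fit has 1 residual degree of freedom and, where a group keeps 1 array, takes that array to vary like the other groups. Its p-values therefore say little about stability. This holds for every gene given such a fit here, whether a call ends or is gained. For both siRNAs together the blocked difference was -0.59 (adjusted p = 0.00373), and that call ended without mock replicate 2 (0.0679). With siRNA 3 alone it was -0.19 and did not pass with the block (adjusted p = 0.352).

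Ocln had differences from its mock arrays of -0.38 and -0.59 with siRNA 2 and of -0.11 and -0.17 with siRNA 3. All 4 were negative. The siRNA 2 difference of -0.49 passed with the block (adjusted p = 0.0266) and not without it (0.429). The blocked call ended without either siRNA 2 array or either mock array (0.0542 to 0.168). So 3 of the 8 genes were lower with siRNA 2 under the block, Cdh1, Cldn6 and Ocln, where 9.95% of all genes were lower, 7.24% higher and 17.2% passed in either direction.

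Cldn4, a barrier-forming claudin, had log2 values of 8.82 and 8.69 in mock cells, 8.83 and 9.16 with siRNA 2, and 9.24 and 9.06 with siRNA 3. The 4 siRNA arrays all lay above the mock arrays, and 15.2% of all genes had that order. The difference of both siRNAs from mock was 0.32 (SE 0.122) and missed the threshold (limma adjusted p = 0.152, under the block 0.0809). With siRNA 3 it was 0.39 (95% interval 0.07 to 0.72, adjusted p = 0.156). With the block, Cldn4 passed for both siRNAs without siRNA 2 replicate 1 (0.00910) or siRNA 3 replicate 2 (0.0256), for siRNA 2 without siRNA 2 replicate 1 (0.0336), and for siRNA 3 without either siRNA 2 array or siRNA 3 replicate 2 (0.0181 to 0.0442).

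Tjp1, for the scaffold ZO-1, stood at 9.91 on both mock arrays, 9.82 and 9.93 with siRNA 2 and 10.19 on both siRNA 3 arrays. The siRNA 3 difference of 0.28 (SE 0.0962) missed the threshold (limma adjusted p = 0.140, under the block 0.0558). It passed with the block when either siRNA 2 array was left out, with the difference itself still 0.28. Cldn3, the neighbour of Cldn4 on chromosome 5, had values of 6.31 and 6.12 in mock cells, 6.03 and 6.002 with siRNA 2 and 6.204 and 6.06 with siRNA 3. Its difference of -0.14 had a 95% interval of -0.42 to 0.15.

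With siRNA 3, 0 of the 8 genes passed in limma with or without the block, against 5.74% (2.26% higher and 3.48% lower) and 14.1% (5.74% higher and 8.38% lower) of all genes, and 2 (Cldn4 and Tjp1) had an unadjusted p under 0.05, against 20.6%. For Epcam the difference of both siRNAs from mock was -0.10 (95% interval -0.47 to 0.26) and for Cldn7 -0.05 (-1.21 to 1.11). The interval of Cldn7 without the block holds changes in either direction of over 2-fold.

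**Figure D3:**
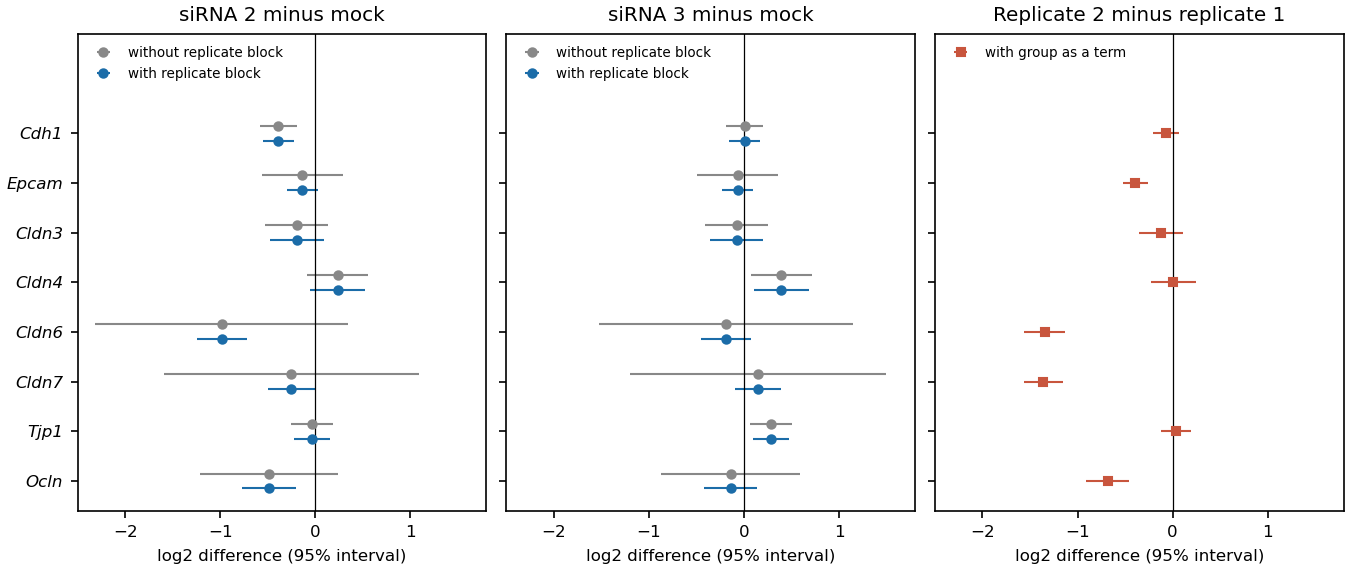
Log2 differences (horizontal axes) of the 8 junction genes (vertical axis) for each siRNA against mock, without and with the replicate block, and for replicate 2 against replicate 1, with bars for the 95% interval of the limma fit. The block narrows the intervals of Cldn6, Cldn7, Ocln and Epcam, the 4 genes called lower in replicate 2, from an SE of 0.583 to one of 0.116 for Cldn6 with siRNA 2.

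Without the block, the further junction genes passed about as often as all genes. Of the 92 further junction and epithelial genes, 6 were higher and 3 lower with both siRNAs together, 9 in all (9.78%). Of all genes 10.3% passed (4.15% higher and 6.19% lower), the background for each list below without the block. With the block 14 of the 92 were higher and 9 lower. There 20.2% of all genes passed (8.43% higher and 11.7% lower), the background for each list below with the block. The median difference of the 92 was 0.0166. Without mock replicate 2 the count was 2. All siRNA arrays lay above both mock arrays for 25 of the 92, against 15.2% of all genes, and below them for 11, against 18.4%. Of the 8 trophectoderm markers, Eomes was higher by 1.02 and Gata3 by 0.82 with both siRNAs together (adjusted p = 0.00664 and 0.00697), and with the block 4 were higher. Of the 8 primitive endoderm markers 0 passed in limma, with 2 at an unadjusted p under 0.05, and with the block 3 were lower, Cubn by 1.19, Amn by 0.80 and Sox17 by 0.40 (adjusted p = 0.00153, 0.0456 and 0.0480). Their median difference was -0.18 for both siRNAs and -0.30 for siRNA 2. With siRNA 2 alone 0 passed without the block. With it 3 were lower, where 9.95% of all genes were. Of the 4 epiblast markers 0 passed, with 1 at an unadjusted p under 0.05, and with the block Otx2 and Fgf5 were higher by 0.71 and 0.43 and Dnmt3b was lower by 0.28. These marker genes were picked after their values were seen, and their part in the junction gene differences, the blocked calls of Cldn6 and Ocln included, was not tested.

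In the desmosome, the spot-like junction that ties intermediate filaments to the membrane, 2 of 11 genes rose and 1 fell. With the block 4 of the 11 rose and 2 fell. Perp, a desmosomal membrane protein and p53 target, had log2 values of 9.46 and 9.17 in mock cells, 11.08 and 11.05 with siRNA 2, and 11.29 and 11.17 with siRNA 3. The groups stood well apart. It rose 3.57-fold (log2 difference 1.83, limma adjusted p = 0.000473). Dsp, for the linker desmoplakin, rose by 0.77 (SE 0.169, adjusted p = 0.0254), and Pkp2, for the plaque protein plakophilin 2, fell by 0.98 (SE 0.160, adjusted p = 0.00818). The call of Pkp2 ended without mock replicate 2 (0.0901), and that of Dsp without either siRNA 2 array or mock replicate 2 (0.0692 to 0.161). With siRNA 2 alone Dsp passed with the block (0.0155) and not without it (0.0730).

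Among 17 tight junction scaffold and polarity genes 3 rose and 0 fell without the block, and 4 rose and 2 fell with it. Amotl1, a member of the angiomotin family of junction proteins that bind Yap, was at 6.14 and 5.95 in mock cells, 7.09 and 7.14 with siRNA 2, and 7.31 and 7.06 with siRNA 3. All siRNA arrays lay above both mock arrays, and it rose by 1.10 (SE 0.129, limma adjusted p = 0.00233). Its relative Amotl2 rose by 0.62 (adjusted p = 0.0354) and Llgl2, a basolateral polarity gene, by 0.68 (adjusted p = 0.00376). The call of Amotl2 ended without either siRNA 2 array, without mock replicate 2 (0.0725 to 0.251) and without the trend (0.0520), and that of Llgl2 without mock replicate 2 (0.0508). For Amotl2 each siRNA alone passed with the block (0.0190 with siRNA 2 and 0.00964 with siRNA 3) and not without it (0.0915 and 0.0595).

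Of 9 other tight junction membrane genes, Jam2, a junctional adhesion molecule, fell by 0.50 (SE 0.122, limma adjusted p = 0.0366) and 0 rose. Its call ended without siRNA 2 replicate 1, siRNA 3 replicate 1 or either mock array (0.0701 to 0.236) and after repeated quantile normalization (0.0561). Each siRNA alone passed for Jam2 with the block (0.00662 and 0.00732) and not without it (0.0725 and 0.0797). For both siRNAs together with the block, 1 of these 9 genes was higher and 1 lower. Of 15 other claudins, Cldn9 fell and 0 rose. Cldn9 is the next protein-coding gene to Cldn6 on chromosome 17. Its log2 value was 5.16 and 5.25 in mock cells, 4.62 and 4.60 with siRNA 2, and 4.63 and 4.57 with siRNA 3. It fell by 0.60 (SE 0.111, adjusted p = 0.0136) and had a replicate difference of 0.0032 (SE 0.103). Its log2 values were low, beside a 25th percentile of 4.28 for the mean levels of all genes. Its call ended without siRNA 2 replicate 2 (0.0514) or mock replicate 2 (0.102).

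The adherens junction partners of E-cadherin did not pass, 0 of 11 catenin, nectin and related genes in limma, with 3 at an unadjusted p under 0.05. The difference was 0.12 for Ctnna1 (alpha-catenin, SE 0.0611), 0.07 for Ctnnb1 (beta-catenin, SE 0.0856) and -0.12 for Ctnnd1 (p120-catenin, SE 0.163). With the block 3 of the 11 were higher and 1 lower, where 8.43% of all genes were higher and 11.7% lower. None of 8 other classical cadherins passed in limma, 0 also at an unadjusted p under 0.05. Cdh3, P-cadherin and the neighbour of Cdh1 on chromosome 8, had a difference of 0.12.

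Of 10 epithelial regulators St14, the membrane protease matriptase, rose by 0.86 (SE 0.143, limma adjusted p = 0.00869) and 0 fell, a call that ended without mock replicate 2 (0.0778). With the block 1 of the 10 was higher and 2 were lower. Grhl2 had a difference of -0.02, which was 0.01 after median centring or repeated quantile normalization. Of 11 repressors and mesenchymal genes 0 passed in limma, with 3 at an unadjusted p under 0.05, and with the block Vim did. The difference was 0.28 for Snai1, 0.17 for Zeb1 and 0.36 for Vim (adjusted p = 0.0720, or 0.0301 with the block). With siRNA 2 alone Vim had an adjusted p of 0.0536, or 0.0186 with the block.

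**Figure D4:**
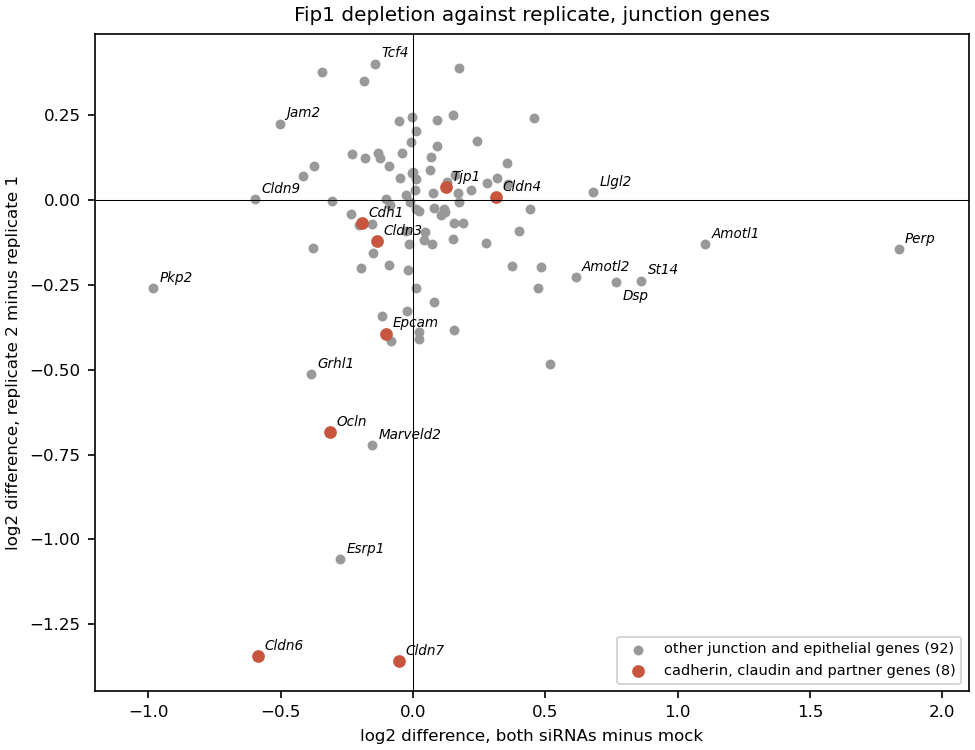
Log2 difference of both siRNAs minus mock (horizontal axis) against replicate 2 minus replicate 1 (vertical axis) for the 8 junction genes (red) and 92 further junction and epithelial genes (grey), with 1 point per gene. Cldn6 and Cldn7 lie lowest, at -1.34 and -1.36 on the replicate axis, and Perp lies furthest right, at 1.83 on the depletion axis.

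The genes whose pattern over the 6 arrays was most like that of Cldn6 were sought among 1002 genes with a range of at least 1 log2 unit. Ocln came first (Pearson r = 0.990), followed by Hs6st2 (0.988), Pgap4 (0.987), Car4 (0.982) and Fign (0.981). Ocln is thus both a listed gene and the closest match. For Cdh1 the closest were Homez (0.895), Sos2 (0.880), Cds1 (0.858), Sfrp2 (0.856) and Ggps1 (0.856), of 1003 genes. These r values are descriptions over 6 arrays that share replicates and groups.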

How the data were processed

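RNA of 6 samples was hybridised to Affymetrix whole mouse genome arrays, 1 per sample. The deposited log2 values were made by the authors with RMA, per the submitters' processing notes; the sources used here give neither its version and settings nor how probe sets were defined. A platform annotation gave 1 gene for 15270 of 16556 probe sets and several for 0; symbols were updated through the gene number, all 15270 found, and the brighter probe set was kept for 3 genes, none a member, leaving 15267. No array scaling or filter was added. Every column belonged to 1 of the 6 samples.

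One limma 3.58.1 model in R 4.3.3 (3 group means, 3 residual degrees of freedom, empirical Bayes with a trend) gave two-sided p-values, adjusted by Benjamini-Hochberg over all genes, threshold 0.05. Replicate 2 minus replicate 1 came from the model with group and replicate (2 residual degrees of freedom). Deviations of same-numbered arrays correlated at 0.383, 0.281 and 0.443 over genes, so the numbers were taken to pair the arrays. Blocked values are given where they change a call of a member or of a gene named by rule. Blocked counts of the junction lists are given for both siRNAs together where they differ. The code was run on simulated data with independent noise on each array. These held no shared replicate shift, so they do not bear on the calls given here. Array pairs correlated at 0.987 to 0.997. Precision is limited by having 2 arrays a group.

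The members and lists were chosen with earlier results of these data known. The text names all members, Fip1l1, list genes that passed for both siRNAs (up to 4 each way where over 5 passed), 9 fixed genes (1 is not reported here), and the 5 genes most like Cldn6, the member with the largest siRNA difference, and Cdh1; others are said to be outside this. Alternatives were the block, each array left out, median centring, repeated quantile normalization, level filters, other variance moderation and all probe sets. Figures used matplotlib 3.10.9 in Python 3.11.15.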

Additional observations from a re-analysis of the deposited data

How the results depend on the processing

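Counts of called genes depended on the replicate block and on single arrays. With the replicate block 3080 genes passed for both siRNAs, 2624 for siRNA 2 and 2156 for siRNA 3, with 1 member for both siRNAs, 3 for siRNA 2 and 23 further junction genes; without it the counts were 1578, 1057, 877, 0, 1 and 9. Among single genes the block and the pairing added calls for Cldn6 and Vim (both siRNAs and siRNA 2), Ocln and Dsp (siRNA 2), and Amotl2 and Jam2 (siRNA 2 and siRNA 3), and changed no other call of the members and of the genes named by rule. Without the trend in the prior variance 0 members passed for siRNA 2, and 227 genes for the replicates in place of 382. With 1 array left out, the counts were 305 to 1368 genes for both siRNAs, 66 to 1094 for siRNA 2, 93 to 573 for siRNA 3, 193 to 317 for the replicates, 0 to 1 members for siRNA 2, and 2 to 12 further junction genes. The members called for both siRNAs (0), siRNA 3 (0) and the siRNA difference (0) stayed at these counts in the fits without the block.

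Leaving out 1 array by construction unbalances the replicates, and differences that did not pass without the block then changed sign. For both siRNAs they ran from -0.31 to 0.11 for Epcam, -1.1998 to 0.029 for Cldn6, -0.66 to 0.56 for Cldn7, -0.33 to 0.097 for Ctnnd1 and -0.062 to 0.029 for Grhl2, which was also 0.0101 after median centring and 0.0107 after repeated quantile normalization. For siRNA 2 they ran from -0.35 to 0.075 for Epcam, -0.94 to 0.43 for Cldn7 and -0.091 to 0.023 for Tjp1. For siRNA 3 they ran from -0.022 to 0.036 for Cdh1, -0.28 to 0.15 for Epcam, -0.17 to 0.017 for Cldn3, -0.94 to 0.57 for Cldn6, -0.59 to 0.89 for Cldn7 and -0.47 to 0.19 for Ocln. For siRNA 2 minus siRNA 3 they ran from -0.29 to 0.15 for Epcam, -0.32 to 0.0081 for Cldn4, -1.14 to 0.34 for Cldn7 and -0.75 to 0.053 for Ocln. For the replicates they ran from -0.15 to 0.10 for Cldn4 and -0.00048 to 0.057 for Tjp1. Under the block with 1 array left out, the sign changed for Tjp1 (0.0229) and Cldn4 (-0.0048) with siRNA 2, Cdh1 with siRNA 3 (-0.0214 and -0.0020) and Cldn7 with both siRNAs (0.0551). These blocked fits were added after the data were seen. No member had a second probe set to try. With 2 arrays a group the precision is low, and no detection calls were used.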
